A study of Callithrix jacchus with 4 samples.

Results

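The genes described here encode the presynaptic machinery of vesicle release: the SNAREs and the proteins that take them apart, the synaptotagmins and other calcium sensors, the complexins, the membrane proteins of the synaptic vesicle, the synapsins and RAB3 GTPases, the active-zone scaffold and a dynamin. They were chosen by gene symbol, 41 in all, with earlier results of these data known. The table held 40 of them among 35108 genes. All 40 passed the filter on low counts that kept 16385 genes for testing, and SYT5 is not analysed here. No member had fewer than 128 counts in any library.

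The tissue was frontal cortex of adult common marmosets (Callithrix jacchus, a New World primate), profiled by bulk RNA sequencing. The transgenic group (TG) held 2 libraries from females carrying an APP transgene, which the series title describes as mutant and driven by the human EF1α promoter, a promoter active in most cell types. The wild-type group (WT) held 2 libraries from animals without it, whose sex the labels do not give. The labels state no other agent or allele, no exact age and no founder line. Nor do they state whether each library is from its own animal, so the p-values below measure only the spread between these libraries. That spread may be technical in the transgenic group. In the wild-type group the libraries differed in a Y-linked gene, as given below.

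At a terminal, a filled vesicle is tethered by synapsins and RAB3 proteins, docked and primed at the active zone by RIM and Munc13 proteins, and fused when calcium reaches a synaptotagmin bound to the assembled SNARE complex. NSF and its SNAP adaptors then pull the SNAREs apart, and dynamin cuts recovered membrane from the surface. Many of these proteins come in paralogues that differ between neuron types. Most of the transcripts sit in the cell body, so cortical RNA reports mainly on neurons whose cell bodies lie in the tissue and not on axons arriving from elsewhere.

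Total counts were 13462167 and 18932180 in transgenic libraries 1 and 2, and 12657323 and 13569838 in wild-type libraries 1 and 2. Transgenic library 2 stood apart in astrocyte and oligodendrocyte marker levels. The median of 11 astrocyte markers lay 1.69 below the wild-type mean on the log2 scale there, against 0.04 above it in transgenic library 1, and the median of 11 oligodendrocyte markers lay 1.37 below and 0.02 above. Microglial markers were low in both transgenic libraries (medians of -0.86 and -0.99 in libraries 1 and 2, over 10 genes), and so were endothelial markers (-0.45 and -0.83, over 8 genes). Neuronal markers differed less: the median of 22 pan-neuronal markers lay at -0.02 and 0.14 in transgenic libraries 1 and 2 and at 0.01 and -0.01 in wild-type libraries 1 and 2. None of the 119 markers in the table was at 0 counts in any library. In bulk tissue, fewer cells of a type and less RNA per cell cannot be told apart. The Y-linked gene KDM5D had 0 counts in both transgenic libraries, and 2 and 243 in wild-type libraries 1 and 2. The wild-type libraries are therefore unlikely to be repeats of the same sample. Sex may differ within the wild-type group and between the groups, and its part in the results was not tested.

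Named first are the 7 genes with an unadjusted p under 0.05 in edgeR's test. VAMP1, SYT2 and SV2C were lower in both transgenic libraries than in either wild-type library. RAB3B, RAB3C, DOC2B and SYNPR were higher in both. The groups did not overlap in further members either, as counted below beside the share over all genes tested. The edgeR quasi-likelihood test called none of the 40 at an adjusted p of 0.05, and 0% of all genes tested. DESeq2 called 3 of the 40 (7.5%; VAMP1, SYT2 and RAB3B), against 0.293% of all genes tested, and limma-voom called 0. The same 3 had a log2 fold change of at least 1 in size, as did 5.16% of all genes tested. At an unadjusted p under 0.05 there were 7 of the 40, 4 higher and 3 lower, against 5.62% of all genes tested (3.23% higher and 2.39% lower). By sign 28 were higher and 12 lower, against 49.6% and 50.4% of all genes tested. The median log2 fold change of the 40 was 0.14, and that of all genes tested was -0.0022. Leaving out 1 library moved it to 0.04 (transgenic library 2), 0.06 (wild-type library 1), 0.20 (wild-type library 2) or 0.25 (transgenic library 1). Without transgenic library 1 edgeR called 9 of the 40, against 9.92% of all genes then tested. Without transgenic library 2 it called 0, against 0.0175%. The log2 fold change was under 0.2 in size for 18 of the 40 genes. Because the genes were chosen with earlier results of these data known, these shares describe the list and do not test it.

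Both transgenic libraries exceeded both wild-type libraries in 16 of the 40 genes (40.0%), where 19.5% of all genes tested did. In 9 (22.5%) both lay below, where 19.4% of all genes tested did. The lower share is near the background. By library, 24 of the 40 genes were above the mean of wild type in transgenic library 1 and 29 in transgenic library 2, with median deviations of 0.05 and 0.26 on the log2 scale. Transgenic library 2 also held the low astrocyte and oligodendrocyte marker levels given above, and their part in the result was not tested. The 40 genes together took 2.38% and 2.66% of all counts in transgenic libraries 1 and 2, and 2.38% and 2.45% in wild-type libraries 1 and 2.

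**Figure D1:**
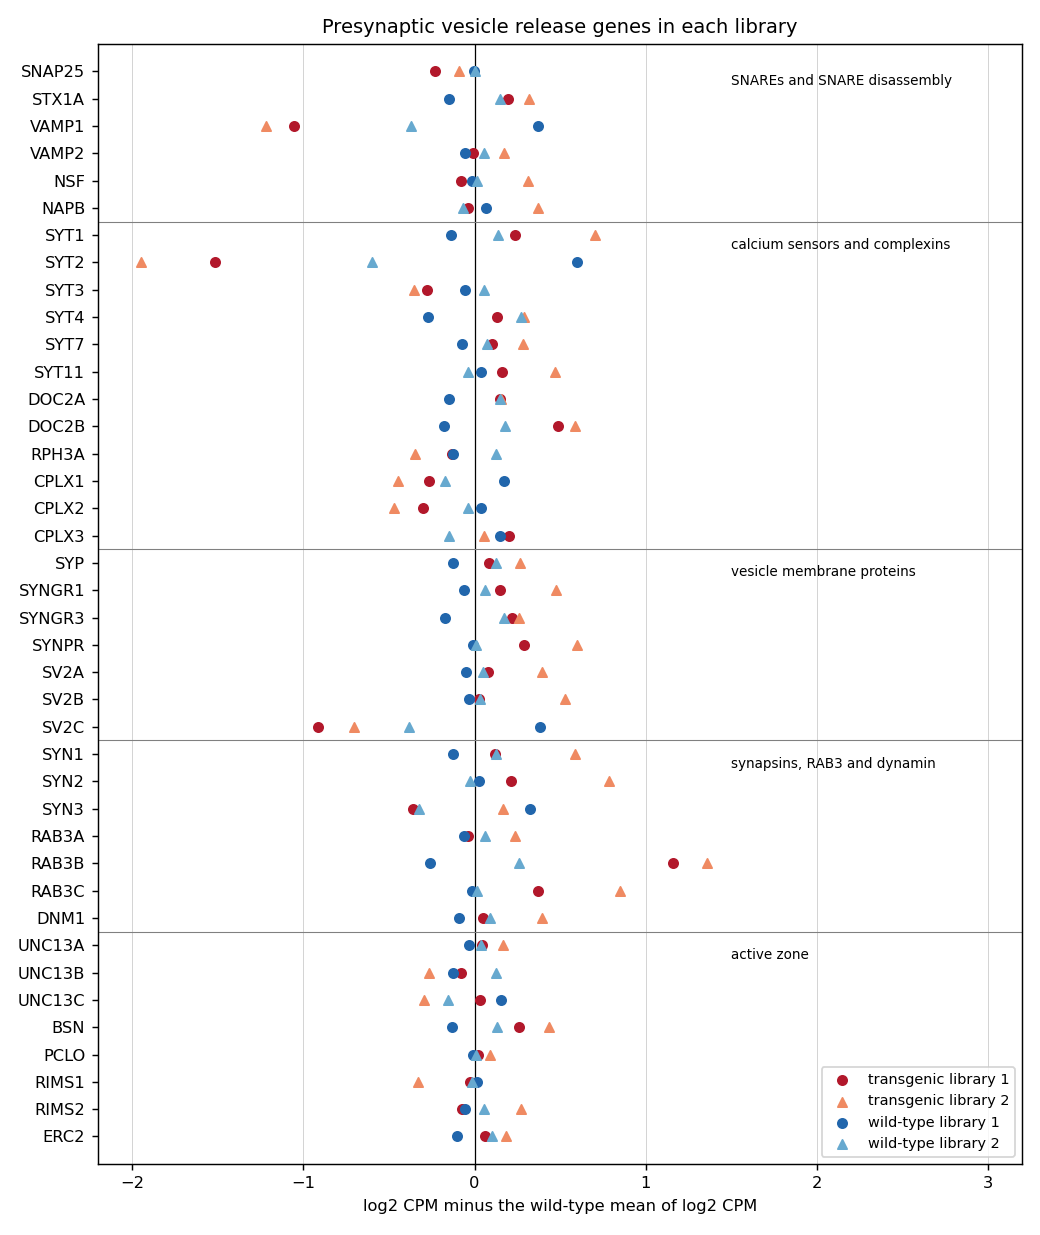
Level of 40 presynaptic vesicle release genes in each library, as log2 CPM minus the wild-type mean of log2 CPM (x axis), one row per gene in groups by role. Transgenic libraries are red and orange, wild-type libraries dark and light blue. SYT2, VAMP1 and SV2C lie to the left in both transgenic libraries, RAB3B to the right, and the 2 wild-type points of SYT2 are far apart.

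Among the SNAREs, VAMP1 was lower in both transgenic libraries, while the groups overlapped for its close relative VAMP2. VAMP1, a vesicle SNARE that in rodents prevails in spinal cord, brainstem and fast-spiking cortical interneurons, was at 132 and 118 CPM (from TMM-scaled library sizes) in transgenic libraries 1 and 2, against 356 and 212 CPM in wild-type libraries 1 and 2. The groups did not overlap, but the wild-type libraries differed 1.68-fold from each other, about as much as the 1.61-fold gap between the nearest libraries of the groups. The fitted log2 fold change was -1.18 ± 0.26 (SE, n = 2 per group; edgeR adjusted p = 0.79, DESeq2 adjusted p = 0.0088), or 2.27-fold lower. It was -0.77 without wild-type library 1 and -1.50 without wild-type library 2. In another marmoset assembly (calJac240_pri) VAMP1 overlaps TAPBPL, which had 16 and 19 counts in the transgenic libraries and 14 and 14 in the wild-type libraries.

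VAMP2, synaptobrevin 2, the main vesicle SNARE of the forebrain, was at 1381 and 1565 CPM in transgenic cortex and 1337 and 1444 CPM in wild type. Its groups overlapped, with a log2 fold change of 0.08 and a 95% interval from -0.34 to 0.50. SNAP25, the SNARE that brings a pair of helices from the plasma membrane, was at 3672 and 4042 CPM in transgenic cortex and 4306 and 4316 CPM in wild type. The transgenic libraries lay below the closely matched wild-type pair, by a fitted log2 of -0.16 ± 0.20 (adjusted p = 0.85 in edgeR, n = 2 per group).

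STX1A, syntaxin 1A, the other plasma membrane SNARE, was at 321 and 348 CPM in transgenic cortex and 253 and 310.0 CPM in wild type (log2 fold change 0.25 ± 0.15; adjusted p = 0.79 in edgeR). Its log2 fold change was 0.10 without wild-type library 1 and 0.41 without wild-type library 2. NSF, the ATPase that disassembles spent SNARE complexes, was at 934 and 1223 CPM in transgenic cortex and 975 and 998 CPM in wild type. NAPB, its adaptor β-SNAP, was at 1040.2 and 1379 CPM in transgenic cortex and 1117 and 1019 CPM in wild type. In both of these genes transgenic library 2 was the highest of the 4 and transgenic library 1 lay near wild type, and without transgenic library 2 their log2 fold changes were -0.08 and -0.04.

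**Figure D2:**
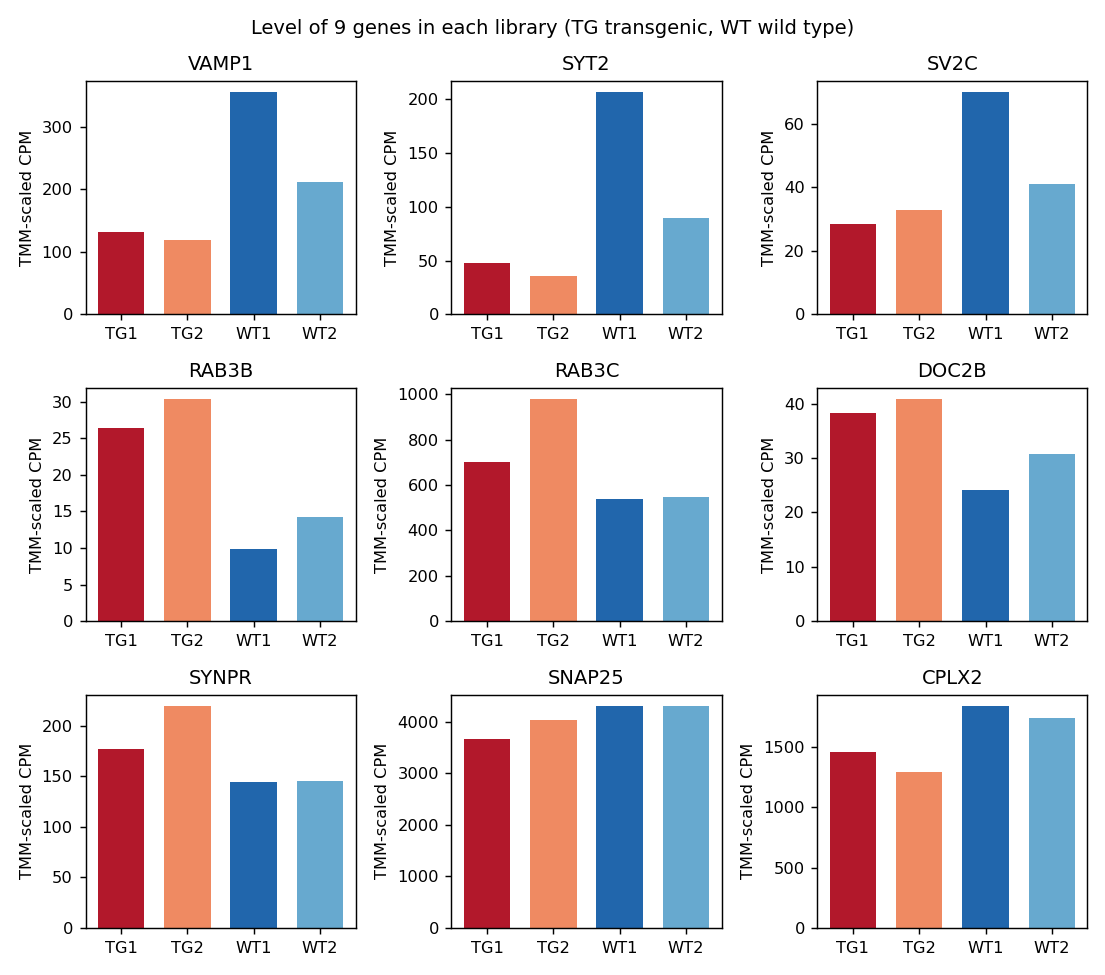
Level of 9 vesicle release genes in each library, in TMM-scaled CPM (y axis, from 0); each bar is 1 library, transgenic (TG1, TG2) left of wild type (WT1, WT2). VAMP1, SYT2 and SV2C are lower in both transgenic libraries and highest in wild-type library 1, at 356, 206 and 70.0 CPM, while RAB3B, RAB3C, DOC2B and SYNPR are higher in both transgenic libraries.

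The calcium sensors and complexins differed in both directions, 7 of 12 being higher in sign and 5 lower. Their median log2 fold change was 0.13, and it was -0.03 without wild-type library 1. SYT2, the fast calcium sensor of parvalbumin basket cell and brainstem terminals in mice, was at 47.6 and 35.3 CPM in transgenic libraries 1 and 2, against 206 and 89.9 CPM in wild-type libraries 1 and 2. The groups did not overlap, and the nearest libraries were 1.89-fold apart. Wild-type library 1 was 2.30-fold above wild-type library 2. The fitted log2 fold change was -1.84 ± 0.42 (SE, n = 2 per group; edgeR adjusted p = 0.79, DESeq2 adjusted p = 0.0020), or 3.58-fold lower, and it was -1.12 without wild-type library 1 and -2.32 without wild-type library 2.

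SYT1, the fast sensor of most forebrain terminals, differed the other way. It was at 2634 and 3651 CPM in transgenic libraries and 2037 and 2460.1 CPM in wild-type libraries. The groups did not overlap, although transgenic library 1 was only 1.07-fold above wild-type library 2 (log2 fold change 0.48 ± 0.24; adjusted p = 0.79 in edgeR and 0.86 in DESeq2, n = 2 per group). Without transgenic library 2 its log2 fold change was 0.22.

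SYT7, the slow sensor tied to asynchronous release and facilitation, was at 337 and 382 CPM in transgenic cortex and 299 and 330.2 CPM in wild type. SYT3 was at 46.3 and 44.0 CPM in transgenic cortex and 54.0 and 58.4 CPM in wild type, lower in both transgenic libraries by a fitted log2 of -0.32 ± 0.14 (adjusted p = 0.79 in edgeR, n = 2 per group). SYT11, which does not bind calcium as SYT1 does, was at 1041 and 1292 CPM in transgenic cortex and 958 and 909.6 CPM in wild type. SYT4, also without the usual calcium binding, was at 376 and 420.0 CPM in transgenic cortex and at 285 and 415 CPM in wild type, where the wild-type libraries spanned most of the range.

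DOC2B, a high-affinity calcium sensor linked to spontaneous and asynchronous release, was at 38.2 and 40.9 CPM in transgenic cortex, against 24.1 and 30.8 CPM in wild type. The groups were apart by at least 1.24-fold, with a log2 fold change of 0.53 ± 0.18 (n = 2 per group; edgeR adjusted p = 0.79, DESeq2 adjusted p = 0.87). In the calJac240_pri assembly DOC2B overlaps RPH3AL, whose log2 fold change was 0.49 ± 0.24, and with strandedness unknown, reads of the overlap cannot be told apart. Its paralogue DOC2A was at 123 and 124 CPM in transgenic cortex and 100.3 and 123 CPM in wild type. RPH3A, rabphilin, which binds RAB3 and SNAP25, was at 494 and 426 CPM in transgenic cortex and 496 and 591 CPM in wild type. For DOC2A and RPH3A transgenic library 1 and the nearest wild-type library were almost level.

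Complexins, small proteins that hold the assembled SNARE complex ready for calcium, were lower in their 2 abundant forms. CPLX2 was at 1456 and 1293 CPM in transgenic cortex and 1844 and 1744 CPM in wild type. The 2 groups were each compact and lay 1.20-fold apart at their nearest (log2 fold change -0.38 ± 0.17, n = 2 per group; edgeR adjusted p = 0.79, DESeq2 adjusted p = 0.61). CPLX1 was at 458 and 404 CPM in transgenic cortex and 620.0 and 488 CPM in wild type, a log2 fold change of -0.36 ± 0.17 with an adjusted p of 0.79 in edgeR, which was -0.19 without wild-type library 1. CPLX3, a form of the retina and of a few cortical neurons in rodents, was at 17.6 and 15.9 CPM in transgenic cortex and 17.0 and 13.8 CPM in wild type, where the groups overlapped.

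Of 7 vesicle membrane proteins 6 were higher in sign and SV2C was lower. Their median log2 fold change was 0.24. Leaving out transgenic library 2 made it 0.08. SV2C, the SV2 glycoprotein that in rodents is found mainly in the basal ganglia and brainstem, was at 28.4 and 33.0 CPM in transgenic libraries 1 and 2, against 70.0 and 41.2 CPM in wild-type libraries 1 and 2. The nearest libraries of the groups were 1.25-fold apart, less than the 1.70-fold between the wild-type libraries. The log2 fold change was -0.85 ± 0.28 (n = 2 per group; edgeR adjusted p = 0.79, DESeq2 adjusted p = 0.52), or -0.43 without wild-type library 1.

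SV2A, the SV2 form found at nearly all synapses and the target of levetiracetam, was at 505 and 628 CPM in transgenic cortex and 462 and 495 CPM in wild type. SV2B was at 787 and 1115 CPM in transgenic cortex and 757 and 793 CPM in wild type. In both, transgenic library 1 was within the range of wild type or just above it. SYNPR, synaptoporin, a relative of synaptophysin, was at 177 and 219.6 CPM in transgenic cortex, against 144 and 146 CPM in wild type. It was apart by at least 1.21-fold from a wild-type pair that differed little (log2 fold change 0.45 ± 0.15, n = 2 per group; edgeR adjusted p = 0.79, DESeq2 adjusted p = 0.72), and the log2 fold change was 0.28 without transgenic library 2.

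SYP, synaptophysin, the most used marker of vesicles, was at 1294 and 1463 CPM in transgenic cortex and 1115 and 1330.4 CPM in wild type, transgenic library 1 falling inside the wild-type range. The log2 fold change was 0.17, with a 95% interval from -0.28 to 0.62, and 0.05 to 0.31 when 1 library was left out. SYNGR1, a synaptogyrin, was at 693 and 869 CPM in transgenic cortex and 599 and 652 CPM in wild type (log2 fold change 0.32 ± 0.17; adjusted p = 0.79 in edgeR; 0.14 without transgenic library 2). SYNGR3 was at 91.5 and 94.1 CPM in transgenic cortex and 69.6 and 88.5 CPM in wild type. Both synaptogyrins were higher in each transgenic library than in either wild-type library, by 1.06-fold and 1.03-fold at the nearest.

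The RAB3 GTPases, which cycle on and off vesicles and bind RIM at the active zone, differed by paralogue. RAB3B was at 26.5 and 30.4 CPM in transgenic cortex, against 9.90 and 14.2 CPM in wild type, and the raw counts were 360 and 549 against 128 and 194. The nearest libraries of the groups were 1.86-fold apart. The log2 fold change was 1.24 ± 0.24 (SE, n = 2 per group; edgeR adjusted p = 0.79, DESeq2 adjusted p = 0.031), or 2.36-fold higher, and leaving out 1 library at a time gave 0.997 to 1.52.

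RAB3C was at 702 and 979 CPM in transgenic cortex and 538 and 549 CPM in wild type. The transgenic libraries lay above a closely matched wild-type pair, with a log2 fold change of 0.63 ± 0.20 (n = 2 per group; edgeR adjusted p = 0.79, DESeq2 adjusted p = 0.31) that was 0.37 when transgenic library 2 was left out and 0.85 when transgenic library 1 was. RAB3A, the prevailing form in brain, was at 568 and 689 CPM in transgenic cortex and 559 and 609 CPM in wild type, overlapping, with a log2 fold change of 0.10 and a 95% interval from -0.30 to 0.51.

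The synapsins, RAB3 genes and DNM1 had a median of 0.37 over 7 log2 fold changes, which was 0.11 without transgenic library 2. Synapsins tether vesicles in the reserve pool. SYN1 was at 724 and 1001 CPM in transgenic libraries 1 and 2 and 610.5 and 725 CPM in wild type, so that transgenic library 1 matched wild-type library 2. SYN2 was at 219 and 326 CPM in transgenic cortex and 193 and 186 CPM in wild type (log2 fold change 0.52 ± 0.21; adjusted p = 0.79 in edgeR, n = 2 per group; 0.21 without transgenic library 2). SYN3 was at 63.6 and 91.7 CPM in transgenic cortex and 102 and 65.2 CPM in wild type, and the log2 fold change of -0.11 turned to 0.13 without transgenic library 1 and to 0.25 without wild-type library 1. In calJac240_pri SYN3 overlaps TIMP3, which was at 138 and 44.1 CPM in transgenic cortex and 131 and 128 CPM in wild type, and SYN1 and SYN2 overlap other TIMP genes. DNM1, dynamin 1, the GTPase of vesicle recovery, was at 1340.1 and 1703 CPM in transgenic cortex and 1216 and 1378 CPM in wild type. SYN1 and SYP are assigned to the X chromosome by symbol in the calJac240_pri assembly. Without wild-type library 2, which had 243 of the KDM5D counts, their log2 fold changes were 0.50 and 0.31.

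Active-zone genes showed the narrowest range of the 5 role groups, with log2 fold changes from -0.17 to 0.34 and a median of 0.08 over 8 genes (0.02 without transgenic library 2 and 0.13 without transgenic library 1). BSN, bassoon, a giant scaffold protein, was at 359.8 and 406 CPM in transgenic cortex and 275 and 329 CPM in wild type (log2 fold change 0.34 ± 0.15, n = 2 per group; adjusted p = 0.79 in edgeR; 0.21 without wild-type library 1). PCLO, piccolo, its relative, was at 315 and 330.2 CPM in transgenic cortex and 308 and 313 CPM in wild type, a difference with a 95% interval from -0.25 to 0.36 on the log2 scale. UNC13A, Munc13-1, which primes vesicles at most excitatory terminals, was at 449 and 488 CPM in transgenic cortex and 425 and 446 CPM in wild type.

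RIMS1, the RIM protein that recruits calcium channels and Munc13, was at 207 and 167 CPM in transgenic cortex and 213 and 208 CPM in wild type, so that transgenic library 2 was low and the other 3 libraries were level. RIMS2 was at 174 and 221 CPM in transgenic cortex and 177 and 190.1 CPM in wild type. UNC13B was at 50.3 and 44.1 CPM in transgenic cortex and 48.7 and 57.9 CPM in wild type, and UNC13C was at 80.7 and 64.2 CPM in transgenic cortex and 87.8 and 70.6 CPM in wild type. ERC2, the scaffold CAST, was at 95.4 and 104 CPM in transgenic cortex and 85.3 and 98.1 CPM in wild type. The groups of these last 4 genes overlapped.

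**Figure D3:**
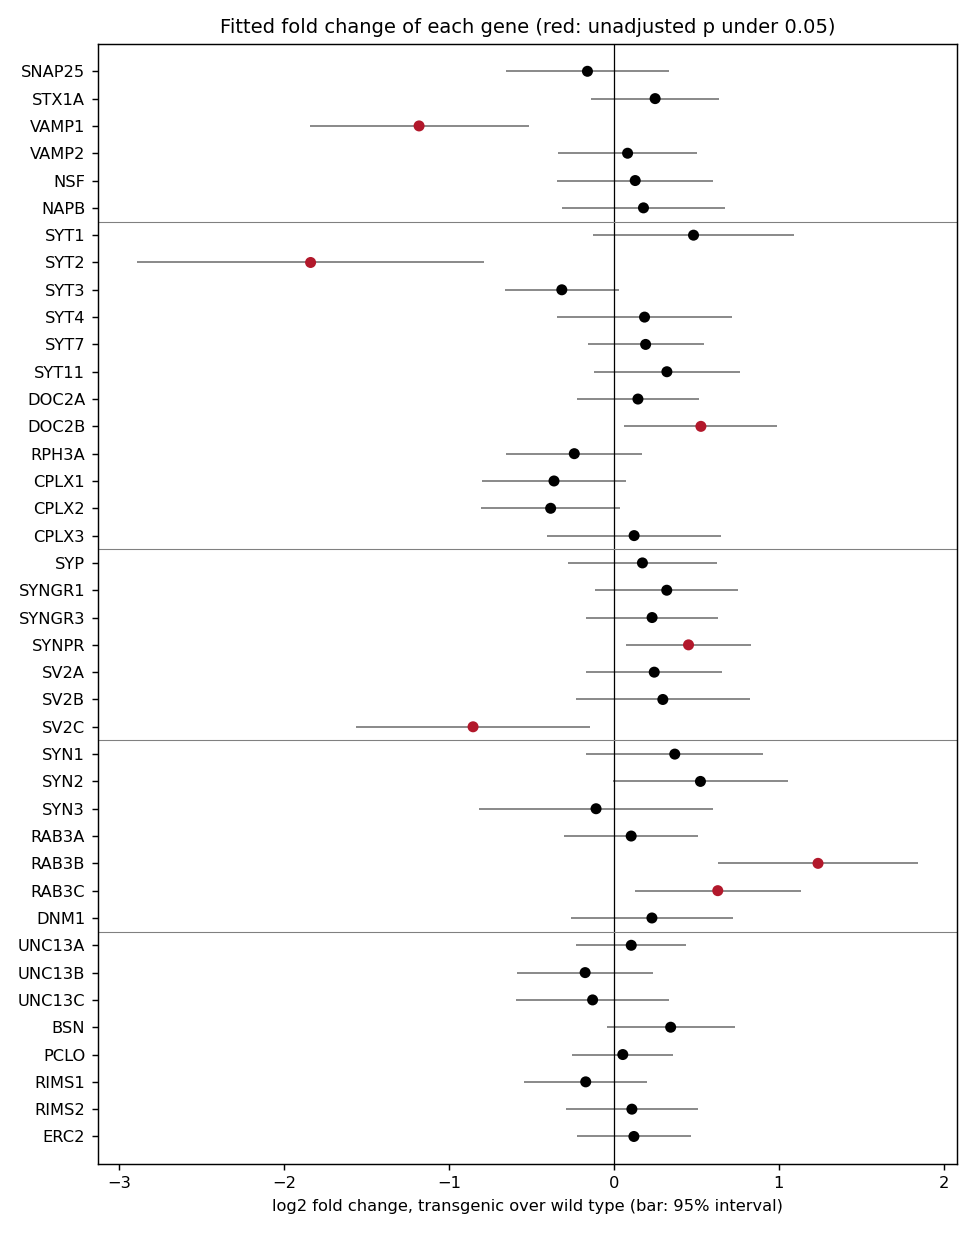
Fitted log2 fold change, transgenic over wild type (x axis), of 40 vesicle release genes with 95% intervals from edgeR's quasi-likelihood fit; red points have an unadjusted p under 0.05 and none passed after adjustment over all genes. The intervals of VAMP1, SYT2 and SV2C lie below 0 and those of RAB3B, RAB3C, DOC2B and SYNPR above it, while all others cross 0.

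Ratios of related genes within a library do not depend on how libraries are scaled. For 19 pairs of members the ratio of counts was taken in each library. Counts are not divided by transcript length here, so only the difference between libraries is read, and several pairs share a gene. The 8 pairs described first are those whose groups did not overlap and differed by at least 0.3 on the log2 scale. No share of non-overlapping ratios over other gene pairs was computed, so nothing is read from their number. With 2 libraries a group, the smallest two-sided p of an exact permutation test is 0.33, and no p was computed for the ratios.

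SYT2 amounted to 1.81% and 0.966% of the SYT1 counts in transgenic libraries 1 and 2, against 10.1% and 3.65% in wild-type libraries 1 and 2, 4.61-fold lower in the mean log2 ratio. VAMP1 amounted to 9.56% and 7.55% of the VAMP2 counts in transgenic cortex, against 26.6% and 14.7% in wild type. SV2C amounted to 5.63% and 5.25% of the SV2A counts in transgenic cortex, against 15.2% and 8.32% in wild type. In these 3 pairs both transgenic libraries were below both wild-type libraries, and wild-type library 1 was the highest of the 4. SYT3 amounted to 1.76% and 1.20% of the SYT1 counts in transgenic cortex, against 2.65% and 2.37% in wild type.

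RAB3B amounted to 4.66% and 4.41% of the RAB3A counts in transgenic cortex, against 1.77% and 2.33% in wild type, a difference of 1.16 in mean log2 ratio. RAB3C amounted to 124% and 142% of the RAB3A counts in transgenic cortex, against 96.2% and 90.1% in wild type. DOC2B amounted to 31.0% and 33.0% of the DOC2A counts in transgenic cortex, against 24.0% and 25.0% in wild type, and CPLX3 to 1.21% and 1.23% of the CPLX2 counts, against 0.923% and 0.793%. The complexin pair CPLX1 and CPLX2, both lower in transgenic cortex, had a ratio of 31.4% and 31.2% in transgenic cortex and 33.6% and 28.0% in wild type. SV2B against SV2A, SYN2 against SYN1 and SYNGR3 against SYNGR1 also overlapped between the groups.

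**Figure D4:**
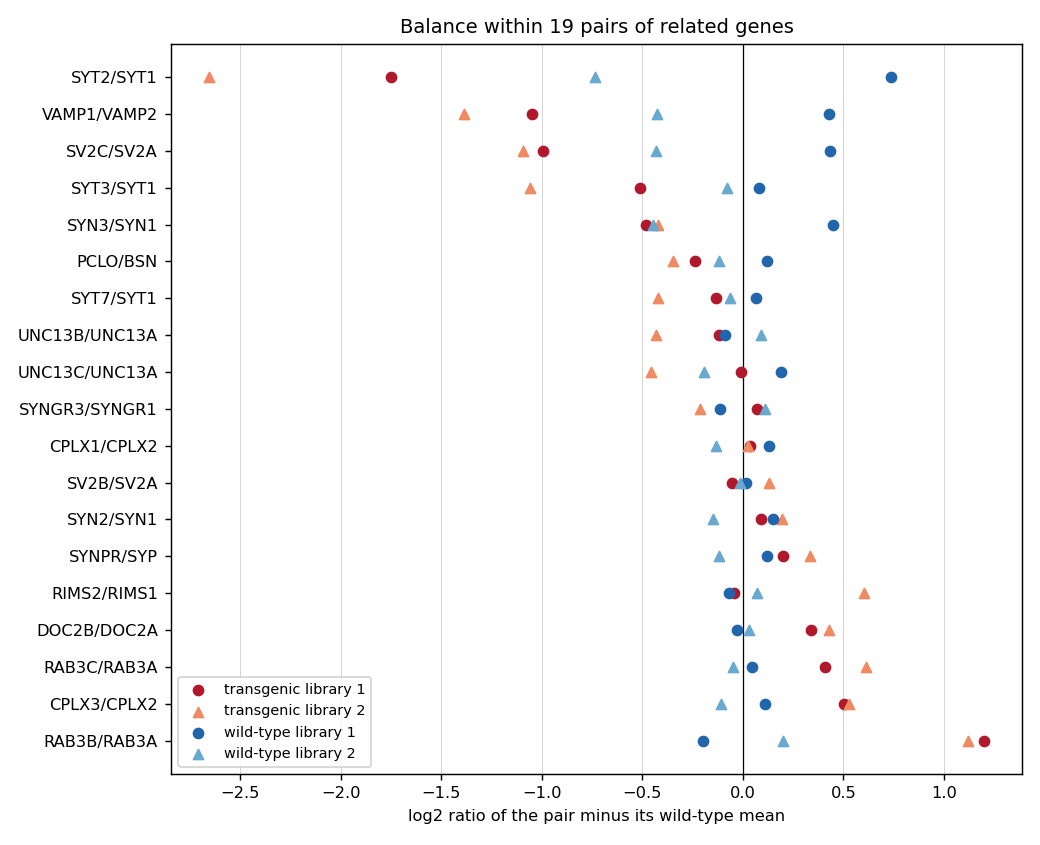
Log2 ratio of counts within 19 pairs of related vesicle release genes, minus the wild-type mean of each pair (x axis), one point per library. SYT2/SYT1, VAMP1/VAMP2 and SV2C/SV2A lie to the left in both transgenic libraries and spread widely between the wild-type libraries, and RAB3B/RAB3A lies to the right at 1.20 and 1.12.

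The other genes of the release and recycling pathway, 91 tested of 93 listed, gave 59 higher and 32 lower in sign and a median log2 fold change of 0.09 (0.03 without transgenic library 2). None passed edgeR's test after adjustment over all genes. At an unadjusted p under 0.05 there were 7 higher (7.69%, against 3.23% of all genes tested) and 1 lower (1.10%, against 2.39%). Both transgenic libraries lay above both wild-type libraries in 33.0% of them, against 19.5% of all genes tested, and below in 16.5%, against 19.4%.

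Among SNARE partners, STXBP5, a tomosyn that holds back SNARE assembly, was at 156 and 205 CPM in transgenic cortex and 143 and 147 CPM in wild type (log2 fold change 0.31 ± 0.17; adjusted p = 0.79 in edgeR). Its paralogue STXBP5L was at 213 and 219 CPM in transgenic cortex and 226 and 254 CPM in wild type. SNCG, γ-synuclein, was at 66.7 and 73.0 CPM in transgenic cortex and 118 and 70.6 CPM in wild type. The groups of SNCG overlapped, with wild-type library 1 above the other 3 libraries, and those of the tomosyn genes did not.

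The remaining synaptotagmins and calcium sensors had the highest median of the 5 pathway lists, 0.48 over 12 genes (0.19 without transgenic library 2), with 8 higher in sign. MCTP1, a membrane protein with several C2 domains, was at 113 and 157 CPM in transgenic cortex and 90.3 and 93.3 CPM in wild type. SYT6 was at 18.8 and 19.5 CPM in transgenic cortex and 13.8 and 10.9 CPM in wild type. SYT12 was at 45.0 and 43.0 CPM in transgenic cortex and 51.0 and 63.8 CPM in wild type, and CADPS2, a factor of dense-core vesicle priming, at 111 and 76.5 CPM in transgenic cortex and 112 and 136 CPM in wild type. The groups of these 4 genes, named for the smallest p in each direction, did not overlap. With these 4 included, groups did not overlap in 10 of the 12 genes of the list. Both transgenic libraries lay above in 58.3% and below in 25%, against 19.5% and 19.4% of all genes tested. The adjusted p was 0.79 for each of the 4 in edgeR's test.

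The vesicular transporters, which load vesicles with transmitter, included scarce and abundant forms. SLC17A6, the glutamate transporter VGLUT2, was at 1.69 and 0.388 CPM in transgenic libraries 1 and 2, against 5.26 and 4.61 CPM in wild type, from 23 and 7 counts against 68 and 63. Its log2 fold change was -2.28 ± 0.68 (n = 2 per group; edgeR adjusted p = 0.79, DESeq2 adjusted p = 0.49), and -1.54 without transgenic library 2. Without transgenic library 1 it was -3.64, which rests on the 7 counts of transgenic library 2 alone. SLC17A7, VGLUT1, the transporter of most cortical glutamate neurons, was at 1157 and 1359 CPM in transgenic cortex and 1066 and 1261 CPM in wild type, overlapping. SLC32A1, the GABA transporter of vesicles, was at 58.7 and 60.8 CPM in transgenic cortex and 52.8 and 52.9 CPM in wild type. SLC6A17, a vesicular transporter of neutral amino acids, had a log2 fold change of 0.49, the proton pump subunit gene ATP6V1A 0.33 and SYPL1, a relative of synaptophysin, -0.35.

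Of the other active-zone genes LIN7A, an adaptor that binds CASK, was at 68.3 and 92.1 CPM in transgenic cortex and 47.8 and 59.0 CPM in wild type. NRXN3, a neurexin, was at 378 and 511 CPM in transgenic cortex and 304 and 359 CPM in wild type. CACNA1A, the P/Q-type channel that supplies calcium for release, had a log2 fold change of -0.13 and the liprin gene PPFIA3 -0.11. Of the endocytosis genes 17 were higher and 7 lower by sign, and their median was 0.12 over 24 genes (0.02 without transgenic library 2). AMPH, amphiphysin, had a log2 fold change of 0.38, the endophilin gene SH3GL3 0.25, the lipid kinase gene PIP5K1C -0.24 and DNM2, the ubiquitous dynamin, -0.24.

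**Figure D5:**
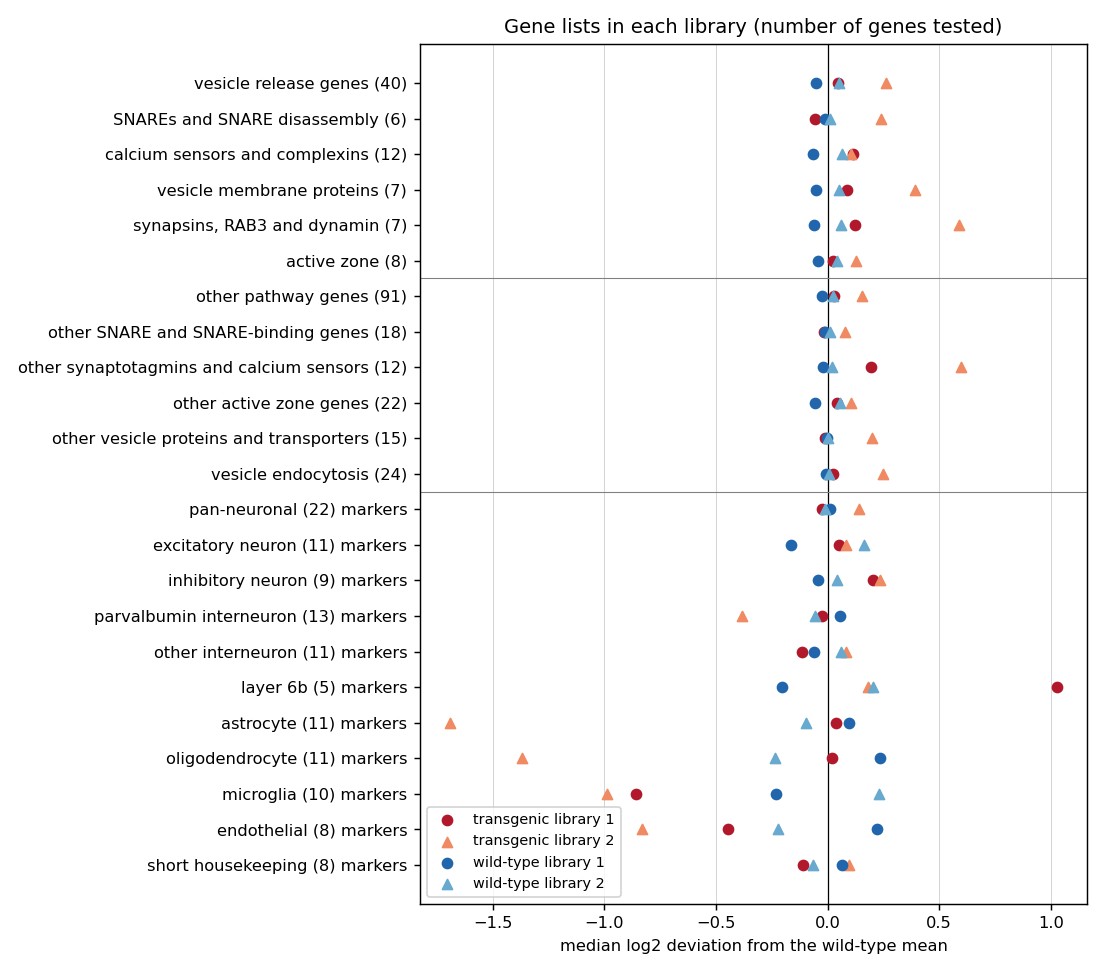
Median log2 deviation from the wild-type mean (x axis) of each gene list in each library; the number of genes tested is in brackets, and the lists are grouped as vesicle release genes by role, other pathway genes, and markers of cell types. Astrocyte and oligodendrocyte markers are low in transgenic library 2 alone, at -1.69 and -1.37. Of its values in the 4 libraries, the synapsin, RAB3 and dynamin list has its highest in the same library, at 0.59.

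Since VAMP1 and SYT2 mark fast-spiking interneurons in rodents, marker levels of that cell type are given beside them. Of 13 parvalbumin interneuron markers 5 were higher and 8 lower by sign. The median log2 fold change was -0.12 (-0.40 when transgenic library 1 was left out, -0.04 when transgenic library 2 was), with 2 of the 13 above both wild-type libraries in both transgenic libraries (15.4%, against 19.5% of all genes tested) and 4 below (30.8%, against 19.4%). Their summed level was 910.1 and 818 CPM in transgenic libraries 1 and 2, and 1063 and 1008 CPM in wild-type libraries 1 and 2. PVALB itself, the calcium buffer that names these cells, was at 29.6 and 25.4 CPM in transgenic cortex and 44.5 and 35.5 CPM in wild type (log2 fold change -0.54 ± 0.19, n = 2 per group; adjusted p = 0.79 in edgeR). The GABA synthesis gene GAD1 was at 286 and 319 CPM in transgenic cortex and 232 and 247 CPM in wild type, where both transgenic libraries were higher. The neuronal splicing factor RBFOX3 was at 284 and 270.2 CPM in transgenic cortex and 402 and 368 CPM in wild type, but of the 22 pan-neuronal markers it belongs to, 13 were higher and 9 lower by sign. The part of these markers in the levels of VAMP1 and SYT2 was not tested.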

How the data were processed

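The values deposited by the authors are raw counts, whole numbers for each gene symbol in each of 4 libraries. Tools named in the submitters' processing notes are featureCounts 1.5.2, kallisto 0.46.2 and STAR 2.5.3a, with no role stated. Neither build, annotation nor strand setting is stated in the sources used here. No pair of libraries was alike within counting noise. The lowest chi-square per degree of freedom was 7.62, for transgenic library 1 against wild-type library 2. It was 12.9 for transgenic library 1 against wild-type library 1 and 10.3 between the wild-type libraries. Between the transgenic libraries it was 37.6, so transgenic library 1 was nearer to both wild-type libraries than to transgenic library 2.

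Counts were analysed in R 4.3.3 with edgeR 4.0.16: filterByExpr, TMM scaling and the quasi-likelihood F-test with genotype as the only term (2 residual degrees of freedom), adjusted by Benjamini and Hochberg over 16385 genes. The biological coefficient of variation was 24.5%. CPM use TMM-scaled library sizes, 3 counts being 0.17 to 0.23 CPM. Standard errors and 95% intervals come from the quasi-likelihood F statistic. Alternatives were DESeq2 1.42.0, limma-voom (limma 3.58.1), other scalings and filters, the replicate number as a block and leaving out each library. On 5 simulated sets for this comparison (16385 genes), edgeR recovered 30.0% of genes changed 2-fold and 76.4% changed 4-fold. Each simulated gene was drawn on its own from the trended dispersion, with no shift shared across a library. Recovery in the real libraries may therefore be lower.

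The members and lists were chosen with earlier results of these data known. Full values are given for members with an unadjusted p under 0.05, those whose groups did not overlap with a log2 fold change of at least 0.3, and a fixed core set. For the pathway, each list gives 2 genes higher and 2 lower, those of smallest p, beside a few fixed genes. SLC17A8 was added after its values were seen, but its values are not given here. Some genes of the lists are not reported here. Sequences are not used here.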

Additional observations from a re-analysis of the deposited data

How the results depend on the processing

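Of the 40 vesicle release genes, edgeR called 0 at an adjusted p of 0.05 and DESeq2 called 3 (SYT2, VAMP1 and RAB3B). Without transgenic library 1 edgeR called 9 of them (22.5%, against 9.92% of all genes then tested), 7 higher (SYT1, SYNPR, SV2B, SYN1, SYN2, RAB3B and RAB3C) and 2 lower (VAMP1 and SYT2), and without each of the other libraries 0, a range of 0 to 9. Over all genes edgeR called 0, DESeq2 48 and edgeR with no filter on low counts 5, with a range of 0 to 1710 when 1 library was left out (1710 without transgenic library 1, 3 without transgenic library 2). Of the other pathway genes edgeR called 0, with a range of 0 to 14 when 1 library was left out. The causes were not tested. In these fits the lone library of a group is taken to vary as the pair of the other group does. limma-voom, RLE scaling, library totals without scaling, a minimum mean count of 50 and scaling to pan-neuronal markers each left the count of vesicle release genes called at 0.

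The median log2 fold change of the vesicle release genes was 0.08 scaled to pan-neuronal markers and 0.09 with library totals, and it kept its sign in every alternative run. Scaling each library to the pan-neuronal markers turned the sign of PCLO alone (-0.00045), a setting applied to single genes after seeing the data. Signs also turned when 1 library was left out for VAMP2 (-0.014 to 0.17), NSF (-0.082 to 0.31), NAPB (-0.042 to 0.37), SYT4 (-0.065 to 0.48), DOC2A (-0.00081 to 0.30), CPLX3 (-0.017 to 0.27), SYN3 (-0.40 to 0.25), RAB3A (-0.045 to 0.24), UNC13C (-0.30 to 0.030) and RIMS2 (-0.076 to 0.27).

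The libraries share replicate numbers between the groups, but nothing in the labels says that a number marks a shared source. The deviations of same-numbered libraries correlated at -0.14 across genes, where genes are not independent replicates. With the replicate block edgeR called 0 genes, 0 of them members, and the block with the numbers crossed, chosen after seeing the data, also called 0. The lowest count of a member in any library was 128, for RAB3B in wild-type library 1.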

Other observations

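Interneuron genes outside the vesicle release list differed in both directions. The 9 general inhibitory markers (7 higher in sign) had a median log2 fold change of 0.20 (0.14 to 0.34 when 1 library was left out). GAD2, a GABA synthesis enzyme, was at 284 and 311 CPM in transgenic cortex and 232 and 235 CPM in wild type. Within the parvalbumin list the fast potassium channel gene KCNC1 was at 100.5 and 89.3 CPM in transgenic cortex and 128 and 122 CPM in wild type. NXPH1, a neurexin ligand, was at 72.5 and 82.3 CPM in transgenic cortex and 56.2 and 55.9 CPM in wild type, and ERBB4 at 107 and 114 CPM in transgenic cortex and 90.3 and 88.6 CPM in wild type. These 4 genes were chosen after their values were seen.

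The 11 markers of other interneurons (8 higher in sign) had a median of 0.10 (-0.12 to 0.11 when 1 library was left out). Excitatory neuron markers had a median of 0.06 over 11 genes (-0.08 to 0.24). Layer 6b markers had a median of 0.77 over 5 genes, with transgenic library 1 at 1.03 above the wild-type mean and transgenic library 2 at 0.18, and it was 0.10 without transgenic library 1. The median of 10 microglial markers was -0.91, with all 10 lower in sign, and that of 8 endothelial markers was -0.65 (-0.88 to -0.28 when 1 library was left out). Among the pan-neuronal markers the neurofilament gene NEFM, picked after its values were seen, was at 415 and 360 CPM in transgenic cortex and 877 and 583 CPM in wild type (log2 fold change -0.91 ± 0.23; adjusted p = 0.79 in edgeR and 0.044 in DESeq2, n = 2 per group), with wild-type library 1 highest as for VAMP1, SYT2 and SV2C. Short housekeeping transcripts had a median of -0.01 over 8 genes, with median deviations of -0.11 and 0.10 in transgenic libraries 1 and 2. RNA quality was not measured, and scaled counts of these genes cannot stand in for it.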
